A study of Mus musculus with 16 samples.

Results

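The genes examined here are 40 genes of the interferon response, chosen by name, in cultured explants of mouse epicardium with and without blebbistatin. Of the 40, 34 have a row among the 15805 genes of the deposited count table and 33 could be tested. Irf7, Oas1a, Mx2, Rsad2, Usp18 and Rtp4 were not analysed here, and Psmb9 was too low for the test. The 16 libraries are primary explants of epicardial cells from C57BL6 mice on a collagen gel, 8 with blebbistatin and 8 without. Blebbistatin is a small molecule that blocks myosin II, the motor with which cells pull on actin filaments. Its dose reads 20 in the labels, with the unit written in more than 1 way, so the concentration is not settled here. The age of the animals, the number of mice behind the explants, the time in the drug and any solvent control do not appear in those labels. The labels do not say that the explants came from separate animals, so the p-values below measure only the spread between these samples.

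Interferons are secreted proteins that warn cells of infection. Type I interferon binds the receptor Ifnar1 and Ifnar2, and the kinases Jak1 and Tyk2 then activate a complex that includes Stat2 and Irf9. That complex binds a DNA element with repeats of GAAA in the promoters of antiviral genes. Interferon gamma acts through its own receptor and Irf1, and raises above all the genes of antigen presentation. Many of these genes are kept at a low level without infection.

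The table behind the values holds raw counts, with 20176386 to 89620195 counts per library. Levels are given as CPM, the counts of a gene scaled to a common library total after TMM normalization. All 10 epicardial markers were present in the 16 libraries, with a summed CPM of 888 to 2561. Macrophage and leukocyte markers, 17 of 18 in the table, summed to 314 to 4356 CPM with blebbistatin and 349 to 4908 CPM in controls (exact permutation test, 2-sided, p = 0.886, adjusted over 6 marker lists 0.886), and the highest libraries were blebbistatin 3 and 6 and control 3 and 6. Of these markers Fcgr1 and C1qa were at 0 in 1 blebbistatin library each, and 0 of the 17 passed the test between the groups. Markers of other cells differed between the groups at an unadjusted p under 0.05 but not after adjustment over the 6 lists: the 6 cardiomyocyte markers in the table summed to 994 ± 169 CPM in treated and 661 ± 237 CPM in control explants (exact permutation p = 0.00901, adjusted 0.0541), the epicardial markers to 1457 ± 442 and 1954 ± 447 CPM (exact permutation p = 0.0426, adjusted 0.0967), and the 2 lymphocyte and dendritic markers to 3.79 ± 1.44 and 2.62 ± 0.447 CPM (exact permutation p = 0.0483, adjusted 0.0967). Of the cardiomyocyte markers 1 passed edgeR: Ttn, the sarcomere protein titin, was higher with blebbistatin (log2 fold change 1.64, edgeR adjusted p = 0.0464). Tnnt2, at 299 to 1073 CPM, made up most of the cardiomyocyte sum. Myh6 was at 0 in 3 blebbistatin libraries and 1 control library, and Actc1 was at 0 in 2 libraries of each group. Endothelial (45.2 and 50.7 CPM) and erythroid (3.28 and 2.72 CPM) markers had exact permutation p-values of 0.568 and 0.535, both adjusted to 0.681. The part of these differences in the results on the members was not tested.

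Promoters were searched for the core of the interferon element, the DNA element with repeats of GAAA described above. In the 250 bases before the start of transcription, 10 of the 29 members with a RefSeq promoter (GRCm38.p6) held GAAA, then any 2 bases, then GAAA again on either strand, 34.5% of them, against 3.46% of the 27025 genes in the table of promoters, with overlapping matches counted. A match describes these letters only and is not evidence that a factor binds. The 8 below are those with the largest spread between explants among the 10. Each run is 60 bases on the strand of the gene, 5′ to 3′, and capitals mark the match. Starts are those of RefSeq. By GENCODE M21, 29 bases of the Gbp2 run, 21 of the Irf2 run and 11 of the Gbp3 run lie in annotated exons, and the match in Gbp2 is among those bases, so by that annotation it is not before the start.
Ifit1, chr19:34640769-34640828, plus strand: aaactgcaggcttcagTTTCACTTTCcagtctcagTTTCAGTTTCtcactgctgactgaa
Gbp3, chr3:142559977-142560036, plus strand: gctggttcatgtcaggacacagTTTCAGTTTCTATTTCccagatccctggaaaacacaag
Ifit3, chr19:34583365-34583424, plus strand: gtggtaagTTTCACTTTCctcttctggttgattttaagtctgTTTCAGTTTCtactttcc
Isg15, chr4:156200856-156200915, minus strand: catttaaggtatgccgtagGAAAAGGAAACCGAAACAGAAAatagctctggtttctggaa
Gbp2, chr3:142620571-142620630, plus strand: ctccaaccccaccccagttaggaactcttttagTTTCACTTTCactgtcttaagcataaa
Stat2, chr10:128270251-128270310, plus strand: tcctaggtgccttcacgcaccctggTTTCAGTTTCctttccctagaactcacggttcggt
Bst2, chr8:71537565-71537624, minus strand: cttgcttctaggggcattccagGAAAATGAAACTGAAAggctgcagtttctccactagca
Irf2, chr8:46739495-46739554, plus strand: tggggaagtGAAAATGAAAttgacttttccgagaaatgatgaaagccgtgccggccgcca

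In Isg15, 3 matches overlap from base 78 before the start, and in Ifit1 a pair lies at bases 104 and 85. B2m and Ifitm2 were the other members with a match. The 3 Ifitm genes were added after their values had been seen, because 1 of them is the member that changed between the groups. They are shown from base 170 to base 31 before the start, and Ifitm2 held a single match at base 46, while Ifitm3 and Ifitm1 held 0 in their 250 bases. The Ifitm1 run holds 18 bases of annotated exons. By GENCODE M21 the Ifitm1 gene begins at base 140967221, so by that annotation the whole run lies inside the gene and not before its start.
Ifitm2, chr7:140955992-140956131, minus strand: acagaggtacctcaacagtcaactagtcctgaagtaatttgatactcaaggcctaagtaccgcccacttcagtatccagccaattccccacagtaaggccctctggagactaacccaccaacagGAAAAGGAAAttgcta
Ifitm3, chr7:141010775-141010914, minus strand: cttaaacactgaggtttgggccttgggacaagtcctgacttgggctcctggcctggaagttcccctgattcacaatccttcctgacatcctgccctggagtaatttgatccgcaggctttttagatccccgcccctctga
Ifitm1, chr7:140967906-140968045, plus strand: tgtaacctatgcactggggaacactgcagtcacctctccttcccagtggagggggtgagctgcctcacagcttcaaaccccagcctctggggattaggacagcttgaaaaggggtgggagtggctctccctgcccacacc

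Whether blebbistatin moved the interferon genes was asked with edgeR over all genes. A single member passed: Ifitm2, an antiviral membrane protein that hinders the entry of viruses into the cell, was higher with blebbistatin. The other 32 tested members did not pass, and 0 fell. Over all 15675 tested genes edgeR called 95 genes, or 0.606%, of which 0.255% were higher and 0.351% lower, and 1 call among the 33 members is too few to compare with that share. At an unadjusted p under 0.05 there were 2 members, Ifitm2 and Ifitm3, while 12.2% of all tested genes were under it. The log2 fold change (blebbistatin minus control) was positive for 27 of the 33 members, 81.8%, against 54.1% of all tested genes. The median member stood at 0.29 and the median gene at 0.04. DESeq2 and limma voom likewise called Ifitm2 and no other member, with 2.7% and 0.721% of all genes called. Leaving out 1 library moved the log2 fold change of 26 of the 33 members by over 1.5 times in at least 1 case, Ifitm2 not among them. For example, that of Irf9 fell from 0.22 to 0.03 without blebbistatin 8, that of Ifi44 from 0.30 to 0.06 without blebbistatin 1, and that of Parp9 from 0.51 to 0.22 without blebbistatin 8. Single libraries also moved the number of calls over all genes: omitting blebbistatin 5 gave 180 and omitting control 6 gave 206, whereas omitting any of blebbistatin 6 or 8 or control 1, 2, 4, 7 or 8 gave 44 to 62. With the replicate number as a block, 1.13% of all genes and again Ifitm2 alone of the members were called.

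**Figure D1:**
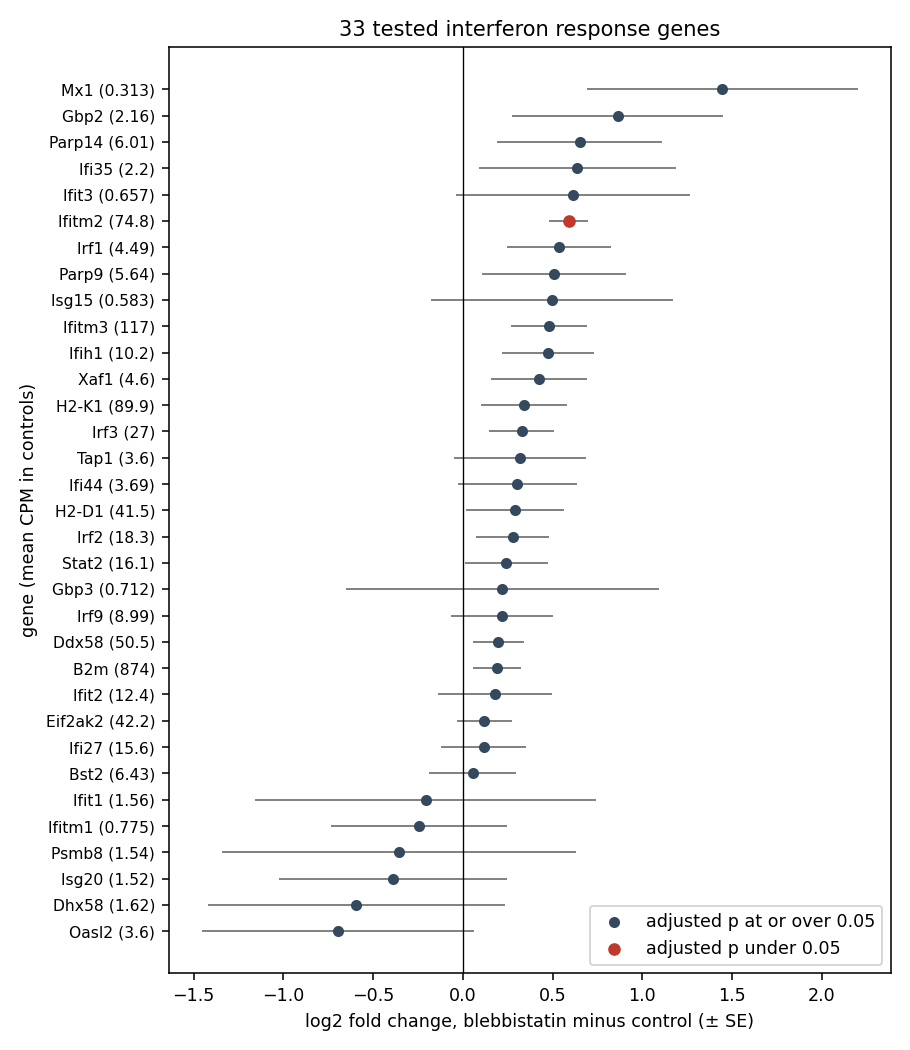
Log2 fold change of each of the 33 tested members (x axis, blebbistatin minus control, bar ± SE from edgeR, n = 8 each), with the gene and its mean CPM in controls on the y axis. Ifitm2 is the only point with an adjusted p under 0.05, and the widest bars belong to the low members Psmb8, Ifit1, Gbp3 and Dhx58.

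The Ifitm genes encode small membrane proteins and lie near each other on chromosome 7. Ifitm2 (ENSMUSG00000060591, chromosome 7, 140954837 to 140955987, minus strand, build GRCm38) ran from 95.6 to 136 CPM in the blebbistatin libraries, with a median of 108, and from 58.6 to 91.4 CPM in controls, with a median of 78. The 2 groups did not overlap, which held for 0.242% of all tested genes, and the gap between the highest control and the lowest treated library was narrow. The treated mean was 112 ± 14.7 CPM and the control mean 74.8 ± 10.6 CPM (SD, 8 explants a group), which is 1.5-fold (log2 fold change 0.59, SE 0.11, edgeR adjusted p = 0.0172). With any 1 library omitted, the adjusted p of edgeR ran from 0.0166 to 0.0478. The log2 fold change stayed between 0.54 and 0.63 in those fits.

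In 2 settings the Ifitm2 log2 fold change lost its call, both chosen after seeing the data. The Y-linked genes Ddx3y, Uty, Kdm5d and Eif2s3y together passed 50 CPM in 5 of 8 treated explants but in 2 of 8 control explants. Those explants had sums of 126 to 180 CPM and the others 3.81 to 8.79 CPM. Explants with male cells were thus spread unevenly over the groups. With the Y-linked level as a covariate Ifitm2 had a log2 fold change of 0.49 (edgeR adjusted p = 0.107), with 0.14% of all genes called. The part of sex in the difference was not tested beyond this. Without the 2 libraries of each group highest in macrophage markers it had a log2 fold change of 0.50 (edgeR adjusted p = 0.107), in 12 libraries. With the macrophage marker level as a covariate in all 16 libraries, it was 0.59 (edgeR adjusted p = 0.0104), with 1.68% of all genes called. The mitochondrial share of the counts was 21.4 ± 3.21% in treated and 16.4 ± 1.70% in control explants, and with those genes taken out the log2 fold change of Ifitm2 was 0.59 (edgeR adjusted p = 0.0183). An annotated gene, Gm45717, overlaps exons of Ifitm2 on the same strand, and how reads over both were counted was not analysed here.

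Ifitm3, the best known of these proteins as a barrier to influenza virus, had the higher level per length of the pair (chromosome 7, 141009586 to 141010770). It ran from 80.3 to 247 CPM with blebbistatin, with a median of 161, and from 90.7 to 186 CPM in controls, with a median of 109. The groups overlapped: blebbistatin 1, 2 and 3 lay above every control, while blebbistatin 5 lay below every control. The log2 fold change was 0.48 (SE 0.21, edgeR adjusted p = 0.357). Ifitm1, which acts mainly at the cell surface, was low, with 0.653 ± 0.340 CPM in treated and 0.775 ± 0.416 CPM in control explants (log2 fold change −0.24, SE 0.49, edgeR adjusted p = 0.879). The 3 genes are close paralogs, and the split of reads among them is uncertain.

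**Figure D2:**
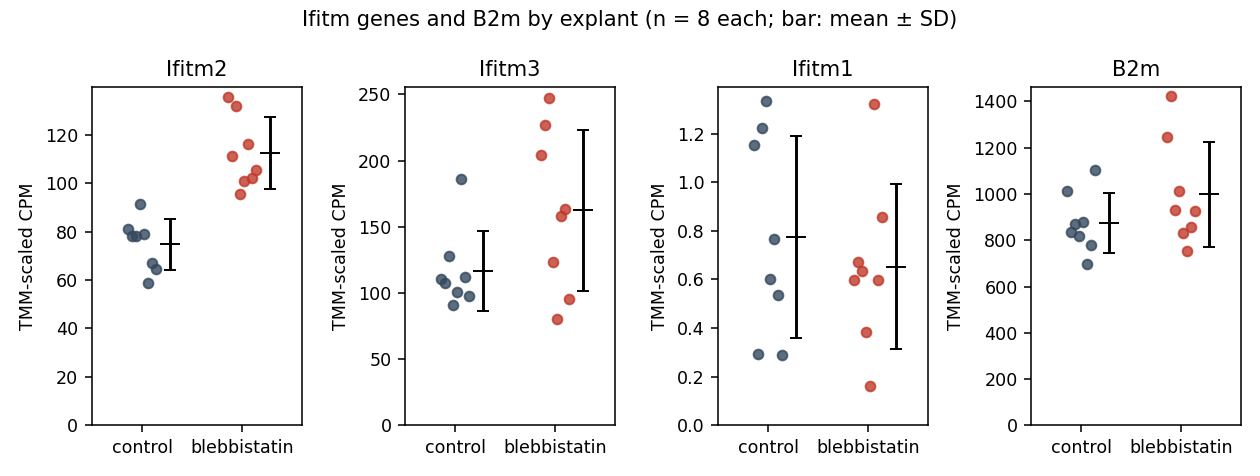
TMM-scaled CPM (y axis, from 0) of Ifitm2, Ifitm3, Ifitm1 and B2m in the 8 control and 8 blebbistatin explants, 1 point per explant, with mean ± SD beside them. The points of Ifitm2 separate, from 58.6 to 91.4 in controls and from 95.6 to 136 with blebbistatin, and those of the other 3 genes overlap.

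The transcription factors that carry the interferon signal were at low to moderate levels, and 0 of 5 passed edgeR, although all 5 had a positive log2 fold change. Irf1, the factor most tied to interferon gamma, ran from 4.66 to 9.61 CPM with blebbistatin (median 5.57) and from 1.70 to 7.16 CPM in controls (median 4.36). Each of the 8 treated explants exceeded the median control, but the ranges overlapped (log2 fold change 0.54, SE 0.29, edgeR adjusted p = 0.477). Irf3, the factor that switches on interferon itself after viral RNA or DNA is sensed, ran from 21.4 to 45.8 CPM (median 32.3) and from 20.3 to 37.3 CPM (median 25.9), again with overlap (0.33, SE 0.18, edgeR adjusted p = 0.492). Stat2, a subunit of the type I complex, ran from 12.1 to 31.2 CPM (median 18.8) with blebbistatin and from 10.8 to 27.8 CPM (median 13.3) in controls (0.24, edgeR adjusted p = 0.728). Irf2, which competes with Irf1 for the same element, ran from 11.2 to 28.2 CPM (median 24.3) and from 11.4 to 26.0 CPM (median 17.4), a log2 fold change of 0.28 (edgeR adjusted p = 0.637). Irf9, the DNA-binding subunit of that complex, averaged 10.5 and 8.99 CPM (0.22). Exons of Irf9 overlap those of Rnf31 on the same strand and exons of Irf3 those of Bcl2l12 on the other, so their counts may include reads of these neighbours.

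The 3 sensors of viral RNA did not pass edgeR either (0 of 3). Ddx58, which encodes RIG-I, varied least of the 3, from 43.3 to 78.8 CPM (median 56.6) with blebbistatin and from 34.8 to 65.3 CPM (median 50.5) in controls (log2 fold change 0.20, SE 0.14, edgeR adjusted p = 0.625). Ifih1, for the sensor MDA5, ran from 7.40 to 19.6 CPM (median 14.6) and from 5.96 to 14.8 CPM (median 9.98), with overlap (0.47, SE 0.25, edgeR adjusted p = 0.474). Dhx58, for their relative LGP2, ranged from 0 to 4.13 CPM with blebbistatin and from 0.0716 to 3.62 CPM in controls, with a log2 fold change of −0.59 (SE 0.83, edgeR adjusted p = 0.816).

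Several classical antiviral genes were barely present. Of the 34 members in the table, 6 averaged under 1 CPM in controls, namely Isg15, Ifit3, Ifitm1, Mx1, Gbp3 and Psmb9, and 4 did so in both groups. A copy of Ifit3, Ifit3b, had a higher level, given below. Isg15, a ubiquitin-like protein that is joined to other proteins during the response, stood at 0.821 ± 0.902 CPM in treated and 0.583 ± 0.388 CPM in control explants, or between 2 and 205 counts per library. The 205 counts came from blebbistatin 2, the deepest library, and without it the log2 fold change of 0.49 turned to −0.09. Ifit1, which binds viral RNA, reached 6.08 CPM in control 7 and had 0 counts in control 3, and its groups averaged 1.35 and 1.56 CPM. Mx1, a GTPase that traps viral particles and is defective in most laboratory mouse strains including C57BL/6, had the largest log2 fold change of the members, 1.45 (SE 0.76, edgeR adjusted p = 0.460), but on levels of 0.0478 to 2.46 CPM and 0.0240 to 0.678 CPM. Its counts were as low as 1 in blebbistatin 4, control 7 and control 8.

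Among the effectors with a clear level, Eif2ak2, the kinase PKR that halts translation on sensing double-stranded RNA, ran from 28.3 to 61.7 CPM (median 43.8) in treated and from 37.4 to 48.6 CPM (median 41.3) in control explants (log2 fold change 0.12, SE 0.15, edgeR adjusted p = 0.8). Ifit2 averaged 14 ± 6.74 and 12.4 ± 3.71 CPM (0.18, SE 0.32, edgeR adjusted p = 0.859), and blebbistatin 8, at 2.61 CPM, lay far below the others. Bst2, or tetherin, which holds budding viruses at the cell surface, averaged 6.67 and 6.43 CPM. Oasl2 and Isg20, a member of the oligoadenylate synthetase family and an exonuclease, averaged under 4 CPM in both groups with negative log2 fold changes of −0.70 and −0.39. In all, of 12 tested effectors 1 rose, 0 fell and 11 did not pass. Ifit3 has a near-identical copy, Ifit3b, so its values, 1.01 ± 0.738 and 0.657 ± 0.491 CPM (0.61, edgeR adjusted p = 0.756), are uncertain. The copy had the higher level, 11.9 ± 8.55 CPM in treated and 8.50 ± 5.38 CPM in control explants (0.49, edgeR adjusted p = 0.686).

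Antigen presentation was led by B2m, the light chain of MHC class I, and 0 of 5 tested members passed. B2m ran from 752 to 1425 CPM with blebbistatin (median 928) and from 696 to 1103 CPM in controls (median 854), with a log2 fold change of 0.19 (SE 0.13, edgeR adjusted p = 0.618). The class I heavy chain H2-K1 ran from 40.5 to 172 CPM (median 121) with blebbistatin and from 65.3 to 159.9 CPM (median 82.5) in controls (0.34, SE 0.24, edgeR adjusted p = 0.615). H2-D1, the other heavy chain, ran from 26.8 to 88.2 CPM (median 44.3) and from 22.8 to 79.9 CPM (median 35.9), with a log2 fold change of 0.29 (SE 0.27, edgeR adjusted p = 0.722). The treated range contained or overlapped the control range for all 3 genes. These heavy chains are alike in sequence, so reads may be split between them. Tap1, a subunit of the transporter that carries peptides to class I molecules, averaged 4.49 and 3.60 CPM (0.32, and 0.05 without blebbistatin 3). The value of H2-D1 was 0.11 without blebbistatin 2.

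Psmb8 and Psmb9 encode subunits that replace Psmb5 and Psmb6 in the immunoproteasome, the form of the proteasome that interferon gamma induces. Their counts together came to 0 to 61.7 for every 1000 counts of Psmb5, Psmb6 and Psmb7 in controls (median 4.51), and to 0.124 to 51.6 with blebbistatin (median 5.83). The value of 0 was that of control 1, with 0 of the pair against 3336 counts, which allows up to 0.899 (counting error only, since amplified reads are not independent molecules). The highest ratios belonged to control 6, blebbistatin 6 and blebbistatin 3, 3 of the 4 libraries named above for their macrophage markers. On the log2 scale the ratio averaged −7.36 ± 2.55 in treated and −8.09 ± 2.56 in control explants (exact permutation test over 12870 splits, 2-sided, p = 0.572). Psmb8 alone averaged 1.19 and 1.54 CPM (log2 fold change −0.36, edgeR adjusted p = 0.912). Psmb9 ran from 0 to 5.20 CPM with blebbistatin (median 0.513) and from 0 to 1.24 CPM in controls (median 0.0179), with no test. The ratio counts Psmb7 but leaves out Psmb10, a further subunit of the immunoproteasome, so it covers only part of that form. Psmb10 averaged 6.36 ± 2.12 CPM in treated and 4.98 ± 5.17 CPM in control explants (log2 fold change 0.35, edgeR adjusted p = 0.792). Psmb9 and Tap1 share a start region on opposite strands, with exons that overlap.

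The remaining members, regulators and effectors of less defined action, also did not pass. Parp14, an ADP-ribosyltransferase, ran from 3.31 to 22.9 CPM with blebbistatin (median 7.38) and from 2.42 to 17.5 CPM in controls (median 2.81). Each of the 8 treated explants exceeded the median control, but blebbistatin 3 and control 6 stood far above the rest (log2 fold change 0.65, SE 0.46, edgeR adjusted p = 0.621). Parp9, its partner, averaged 8.01 and 5.64 CPM (0.51, edgeR adjusted p = 0.659), with exons that overlap its neighbour Dtx3l on the other strand. Xaf1, a promoter of cell death, averaged 6.16 and 4.6 CPM (0.42, edgeR adjusted p = 0.560). Ifi27 ran from 9.26 to 29.6 CPM (median 16.6) with blebbistatin and from 12.2 to 23.3 CPM (median 14.2) in controls (0.12, edgeR adjusted p = 0.880). Ifi35 and Ifi44 averaged 3.42 and 4.55 CPM with blebbistatin and 2.2 and 3.69 CPM in controls, with log2 fold changes of 0.64 and 0.30. Of the guanylate-binding proteins, which attack the vacuoles of intracellular microbes, Gbp2 reached 16.8 CPM in blebbistatin 1 and at most 4.32 CPM in the other treated libraries. Without blebbistatin 1 its log2 fold change of 0.86 turned to −0.05. Gbp3 averaged 0.822 and 0.712 CPM, with log2 fold changes of 0.22 for Gbp3 and 0.86 for Gbp2 (edgeR adjusted p = 0.942 and 0.603).

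Per length of their exons, the members covered a wide range. In CPM per kilobase, B2m stood at 1161 with blebbistatin and 1017 in controls, Ifitm3 at 240 and 172, Ifitm2 at 172 and 114, and H2-K1 at 38.8 and 30.6. Every other member was under 20 in both groups, and Mx1 and Psmb9, at 0.0826 and 0.0752, were the lowest in controls. These levels describe explants in which fewer cells of a type and less RNA per cell cannot be told apart.

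The treatment difference was set against the variation between explants of the same group. For the median member 6.55% of the variance in log2 CPM lay between the groups, against 5.41% for the median tested gene. With 1 library omitted the share for the members ran from 4.32% without blebbistatin 2 to 7.98% without blebbistatin 7. No share over all genes with the same library omitted is given beside these, so they decide nothing about the members. By level, the 4 members over 6 on the log2 CPM scale, Ifitm2 among them, had a median of 14.55%, against 7.61% for genes of that level. Between 4 and 6 it was 8.84% against 5.34%, and between 2 and 4 it was 5.64% against 4.9%. Between 0 and 2 the members had 4.01% against 5.36%, and under 0 they had 2.01% against 4.22%. Ifitm2 had the highest share of the members, with 72.2% between the groups, and its SD between explants was 0.20 on the log2 scale, the lowest of the members. Only 1.74% of all tested genes had over 50% of their variance between the groups. Irf1 came next with 26.3%, and the other 31 members were under 20%, as were 83% of all genes.

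**Figure D3:**
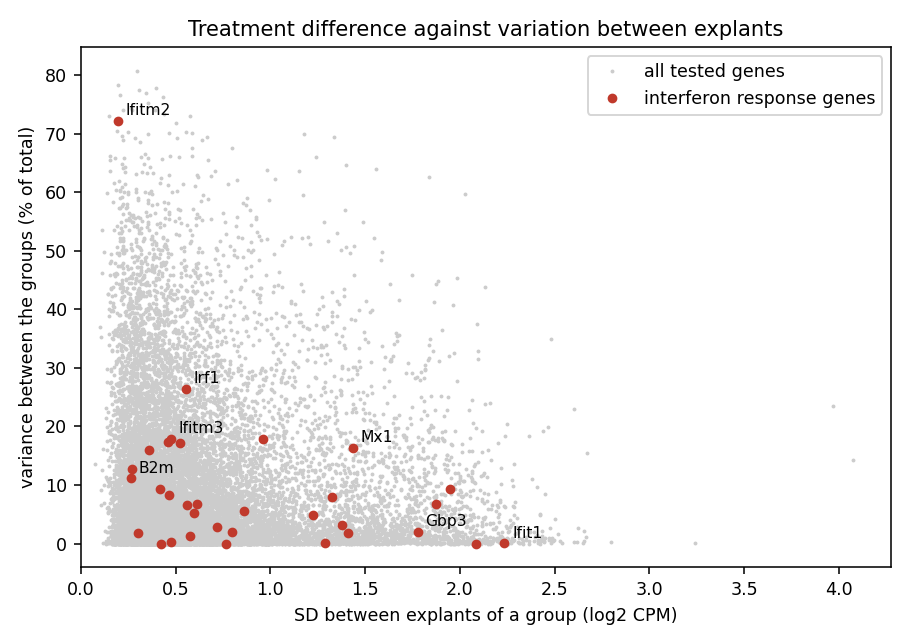
Share of the variance in log2 CPM that lies between the groups (y axis, percent) against the SD between explants of a group (x axis, log2 CPM), for all tested genes in grey and the 33 members in red. Ifitm2 stands alone among the members at 72.2% and an SD of 0.20, and Ifit1 lies farthest right of the members with an SD of 2.23 and almost no variance between the groups.

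The SD between explants had a median of 0.61 over the members and of 0.52 over all tested genes, and it followed the level. Members between 2 and 4 on the log2 CPM scale had a median SD of 0.55, against 0.59 for the 4044 genes of that level, and those between 4 and 6 had 0.39 against 0.38. Between 0 and 2 the 6 members had 1.3 against 0.87, and for the 4 members over 6 it was 0.37 against 0.28. Under 0 the 8 members had 1.61, against 1.57 for the 1515 genes of that level. The part of counting error in the spread of the low members was not tested.

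The explants were compared over the members as a whole. The mean log2 CPM of the 33 members was 2.75 ± 0.38 with blebbistatin and 2.54 ± 0.27 in controls (SD, 8 explants a group), a difference of 0.21 that is smaller than the SD of either group. The difference was 0.13 without blebbistatin 2, 0.14 without blebbistatin 3 and 0.28 without control 6. It was highest in blebbistatin 2, at 3.30, and lowest in control 1, at 2.17. Control 6 held the highest level of its group for 10 of 33 members, and blebbistatin 2 was the highest for 8 and the lowest for 0, while blebbistatin 8 was the lowest for 9 and the highest for 6. After the group means were taken out, the median Pearson correlation over the 528 pairs of members was 0.08 (range −0.75 to 0.81, 16 libraries), and 59.5% of the pairs were positive. For the 13 members of at least 10 CPM it was 0.10, and within antigen processing 0.23. These pairs share libraries and depth, so the values are a description.

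**Figure D4:**
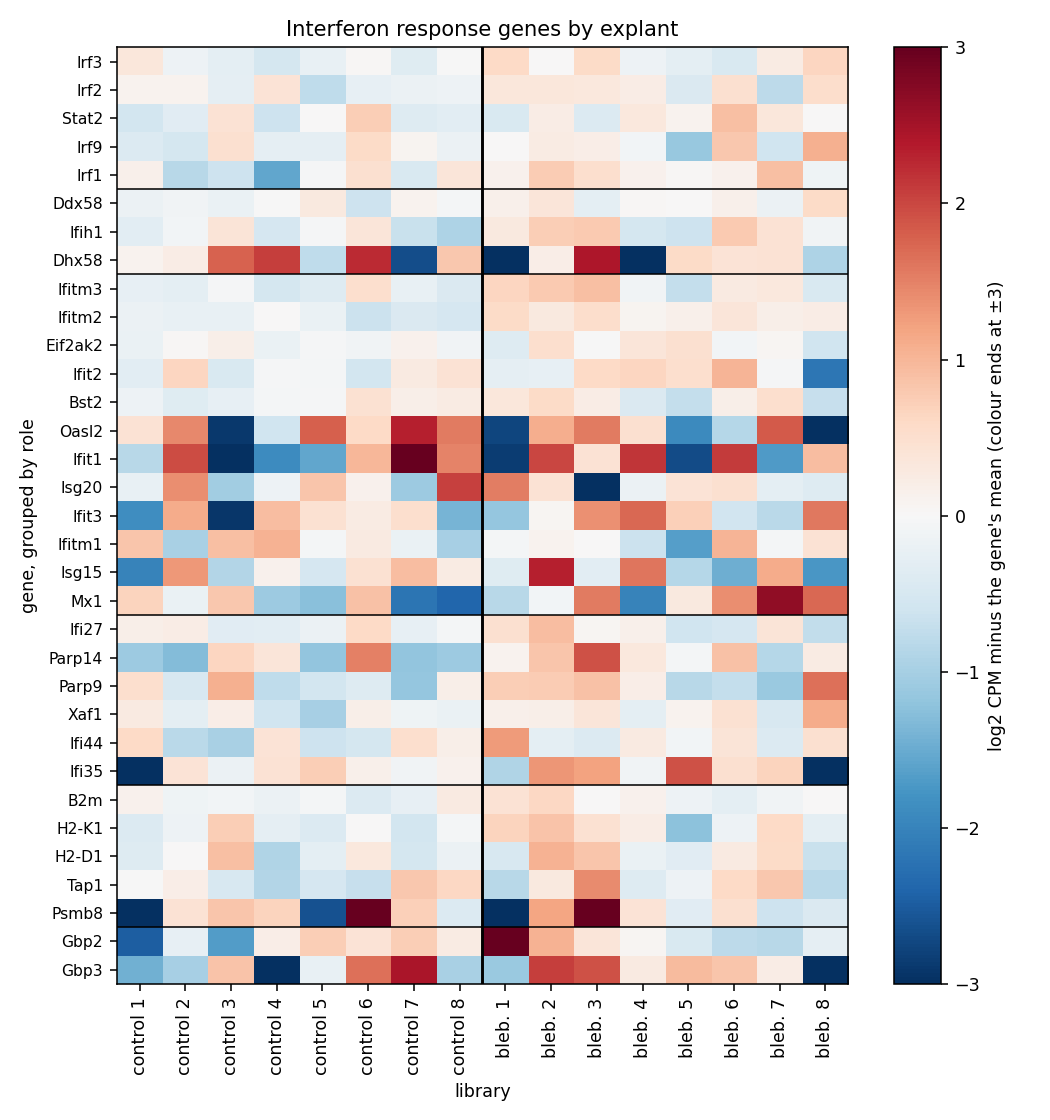
Log2 CPM of the 33 tested members minus each gene's mean (colour, ends at ±3), with the 8 control libraries left of the black line and the 8 blebbistatin libraries right of it, and genes (rows) grouped by role. Steady genes such as Ifitm2 and Ddx58 are pale throughout, while low genes such as Ifit1, Oasl2 and Psmb8 swing from explant to explant.

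The members were also set against the macrophage marker level. That level is a sum of CPM, so it follows the high markers most: Lyz2 ran from 147 to 3703 CPM and Cd68 from 50.8 to 567 CPM. In the edgeR fit with group and that level together, whose coefficient for the markers was examined as an addition after seeing the data, 2 of 33 members had a level that rose with the markers, Parp14 and Psmb8, and 0 had one that fell, against 2.11% and 0.561% of all tested genes. Parp14 rose by 0.60 on the log2 scale for each doubling of the summed markers (SE 0.10, edgeR adjusted p = 0.00158), and its adjusted p stayed at or under 0.0275 with any 1 library omitted. Psmb8 rose by 1.02 (SE 0.26, edgeR adjusted p = 0.0428). Its call was lost in edgeR without blebbistatin 3, 5, 6 or 7 or control 2, 3, 4, 5, 6 or 8, leaving 1 member called each time, and its adjusted p reached 0.354 without control 6. Ifih1 had a slope of 0.29 (edgeR adjusted p = 0.0731), and passed without blebbistatin 1 (0.0424) or blebbistatin 8 (0.0498), making 3. Next came Dhx58 with 0.85 (edgeR adjusted p = 0.126) and H2-D1 with 0.28 (edgeR adjusted p = 0.132). Isg15 and Ifit1 had slopes of −0.15 and −0.19 (edgeR adjusted p = 0.883 and 0.901). The 2 calls among 33 members are too few to compare with the shares over all tested genes. Whether the RNA of Parp14 and Psmb8 came from macrophages was not tested.

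**Figure D5:**
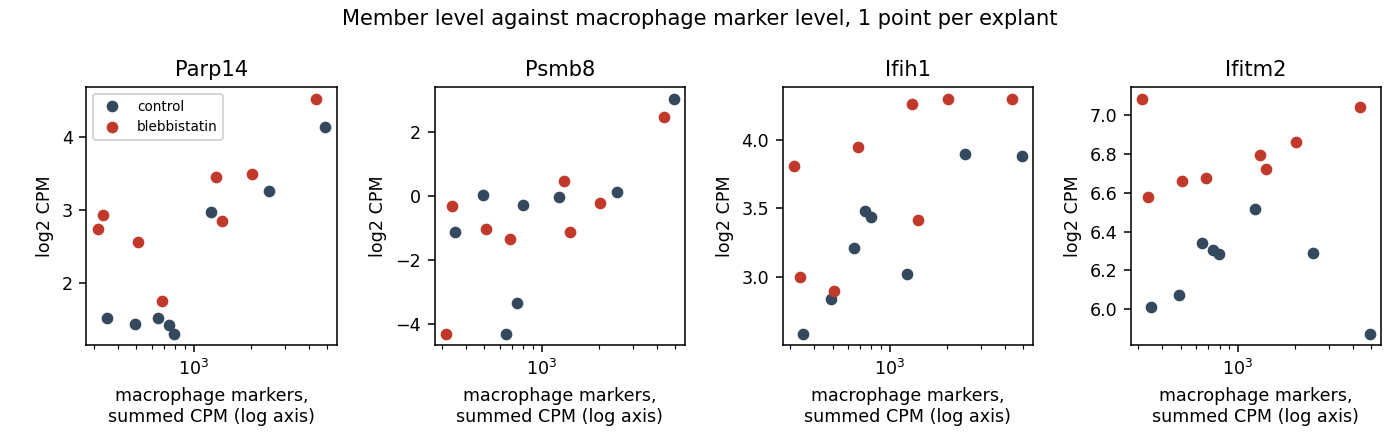
Log2 CPM of Parp14, Psmb8, Ifih1 and Ifitm2 (y axis) against the summed CPM of macrophage and leukocyte markers (x axis, log scale), 1 point per explant, controls in dark blue and blebbistatin in red. Parp14 and Psmb8 are highest in blebbistatin 3 and control 6, the explants richest in the markers, whereas Ifitm2 separates by group.

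The rest of the pathway, 116 further genes listed by role, gave 84 tested genes, of which 0 passed edgeR and 9 had an unadjusted p under 0.05, where 12.2% of all tested genes did. DESeq2 called 1 of them, Gbp7, and limma voom 0. Of the genes of the interferons themselves, 9 on the list, 0 had a row under the listed name in the count table, so they were not analysed here. Of 16 receptors, kinases and brakes of the signal, 0 passed. The type I receptor chains lay on opposite sides: Ifnar2 averaged 37.2 ± 9.24 CPM with blebbistatin and 26.8 ± 8.16 CPM in controls (log2 fold change 0.47, edgeR adjusted p = 0.306), and Ifnar1 averaged 85.2 ± 6.13 and 103 ± 19.5 CPM (−0.27, edgeR adjusted p = 0.324). Ptpn11, the phosphatase SHP2, had a log2 fold change of 0.32 (edgeR adjusted p = 0.295).

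Of 34 further genes that interferon induces, 0 passed and 5 had an unadjusted p under 0.05, again beside 12.2% of all tested genes. Gbp7, a guanylate-binding protein, came closest, at 4.62 ± 2.31 CPM in treated and 1.71 ± 0.971 CPM in control explants (log2 fold change 1.44, SE 0.39, edgeR adjusted p = 0.0979). Irgm2 and Sp100 followed with 0.65 (edgeR adjusted p = 0.223) and 0.59 (edgeR adjusted p = 0.239). The other two were Irgm1, lower at −0.50 (edgeR adjusted p = 0.353), and Parp12 at 0.43 (edgeR adjusted p = 0.404), named after their values were seen. Of the 5 other IRF genes and the 2 class II genes tested, 0 passed. Of 14 sensors and adaptors 0 passed, with Mavs, the mitochondrial adaptor of the RNA sensors, at 0.45 (edgeR adjusted p = 0.366). With the macrophage marker level, 4 of the 84 rose: Tlr7, Ptpn6, Aim2 and Irf8, with edgeR adjusted p-values from 7.17e-05 to 0.0283, beside 2.11% of all tested genes. Tlr7, an endosomal sensor of RNA, rose by 0.96 on the log2 scale for each doubling of the markers. The median log2 fold change between the groups was 0.17 over the 84 genes, with 71.4% of them positive, beside 0.04 and 54.1% for all tested genes, and the 13 genes of the class I machinery had a median of 0.07.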

How the data were processed

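RNA-seq of 16 explants was analysed from the table of raw read counts per gene that the authors deposited. The tools named, per the submitters' processing notes, are edgeR, HTSeq (0.6.1p1), SAMtools (1.3), Bowtie2 (2.2.6.0) and TopHat2 (2.1.0), on the mouse build mm10 (GRCm38). Their roles, the strand setting and any filter are not stated there. Columns were matched to samples by title. Of 15805 Ensembl identifiers 15665 matched GENCODE M21. Counts were filtered with filterByExpr (130 genes out), scaled by TMM and tested with edgeR 4.0.16 (R 4.3.3) by the quasi-likelihood test with a robust fit and Benjamini-Hochberg adjustment over 15675 genes at 0.05. Log2 CPM used a prior count of 2. Alternatives were DESeq2 1.42.0, limma 3.58.1 (voom), other scaling and filters, covariates and leaving out each library. The tests were checked on simulated data with changes larger than those of most members, planted in genes above the lowest levels. That check does not cover small changes or low genes. At the lowest depth 1 CPM is 20.2 counts. The members and gene lists were chosen with earlier results of these data known. All 40 members are named whatever their result, and of each further list the genes called or up to 3 of smallest p. Ifit3b, Psmb10 and single marker genes are named besides for their levels, and Irgm1 and Parp12 after their values were seen.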

Additional observations from a re-analysis of the deposited data

Results flagged for a closer look

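In 4 of 66 groups of 8 libraries examined on the log2 CPM scale, 1 library lay far from the others, by a gap above Dixon's critical value for a group of 8. Chance gives about 1 in 20. H2-K1 stood at 159.9 CPM in control 3, above the next control at 95.5 CPM. Ifi35 was at 0.206 CPM in control 1, below the next at 1.83 CPM. Ifit2 was at 2.61 CPM in blebbistatin 8, below the next at 9.92 CPM. Isg20 was at 0.0181 CPM in blebbistatin 3, below the next at 0.727 CPM.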

How the results depend on the processing

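Of 33 tested members, 22 kept the sign of their log2 fold change over the alternatives run, and 0 of the 32 uncalled members passed where an adjusted p was given. There were 25 alternatives for 32 members and 24 for Mx1, which gave no value without the 4 macrophage-rich libraries, and DESeq2 gave no adjusted p for 9 low members. Ifitm2 passed in 23 of 25. The number of members called was 0 with the Y-linked covariate and without the 4 macrophage-rich libraries, and 1 as each library was left out. Over all genes the calls were 424 with DESeq2, 177 with the replicate block, 264 with the macrophage covariate and 22 with the Y-linked covariate, and 44 to 206 as each library was left out. The labels do not say whether replicate numbers pair explants, and they were not treated as pairs. Deviations of like-numbered libraries correlated at 0.00394 to 0.279 over the 8 pairs, above 0.1 in 4 of them. Of the 8 treated libraries, 2 correlated best with their own number. No baseline for these values was computed, so whether the numbers pair explants is not settled. With the replicate block Ifitm2 was still the only member called. DESeq2 called 1 further pathway gene and the other settings 0. The number of members that ran with the macrophage markers was 1 to 3 as each library was left out.

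Signs turned for low or unmoved members, and the cause was not tested. The log2 fold change became −0.11 for Irf9, 0.60 for Ifit1 and −0.00826 for Bst2 with the Y-linked covariate. Limma voom gave 0.21 for Ifit1, −0.12 for Ifit2 and 0.28 for Psmb8, and DESeq2 0.96 for Psmb8. The replicate block gave 0.00685 for Ifit1, −0.00269 for Bst2 and 0.17 for Psmb8. Without the 4 macrophage-rich libraries it was −0.24 for Ifit2, 0.0796 for Psmb8 and −0.22 for Tap1. Leaving out each library gave ranges of −0.0858 to 0.757 for Isg15, −0.746 to 0.0181 for Isg20, −0.472 to 0.556 for Ifit1, −0.045 to 0.14 for Bst2, −0.057 to 0.221 for Ifi27, −1.39 to 1.003 for Psmb8, −0.0467 to 1.0002 for Gbp2 and −0.126 to 0.886 for Gbp3.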
